A study of Mus musculus with 58 samples.

Results

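Tyr, a, Hprt, Tyrp1, Dct, Oca2, Mc1r and Pmel were followed through RNA and ribosome footprint libraries of mouse striatum. They are 8 of the 54532 genes in the RNA-seq tables and 8 of the 18411 genes in the tables of lysate RNA and footprints. These are coat colour genes together with Hprt, the kinds of gene that chromosome-engineering vectors can carry. Tyr and a were chosen by their RNA-seq counts, which had been seen to differ by genotype in the 16p11.2 line. Differences between genotypes there, for these and the other 6 genes, are a description, and no call in that contrast is used as support. The tests rest on the 3g line and on separate libraries of lysate RNA and footprints. Tyr and a had too few reads there to be fitted in any 3g contrast of del/+ with wt or in footprints. In 16p11.2 lysate RNA they could be fitted only through their del/+ libraries, so what is added for them is the values by animal.

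The libraries came from the striatum of young adult mice with a strain label of B6129S. The paper, however, states that zygotes for the 3g line were produced with C57BL males. Whether the lines share a genetic background was not tested, and comparisons between lines include any such difference. The 3g del/+ mice carried 1 mutated copy each of Taok2, Sez6l2 and Mvp, made by CRISPR/Cas9, and the 16p11.2 del/+ mice, obtained from a repository, lacked 1 copy of the chromosomal segment that holds those genes. Each del/+ group was set against wt mice of its own line. RNA-seq had 4 libraries for each line, genotype and sex, 32 in all. Lysate RNA and ribosome footprints were prepared from a single lysate of each of 13 males, with 3 del/+ and 3 wt in the 3g line and 3 del/+ and 4 wt in the 16p11.2 line. Whether any of these males also gave an RNA-seq library is not given in the sources used here. Both lines carry their mutation in every cell, and each is a single allele, so what is carried with that allele goes with the del/+ genotype.

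In melanocytes, tyrosinase (Tyr) catalyses the first and rate-limiting step of melanin synthesis, and Tyrp1 and Dct are related enzymes of the same pathway. Mc1r, the melanocortin receptor of these cells, drives dark pigment, and the agouti protein encoded by a is a secreted antagonist of Mc1r made in the skin. Pmel forms the fibrils on which melanin is laid down, and Oca2 is a transport protein of the melanosome membrane. Hprt, an X-linked gene used by all cells, encodes a purine salvage enzyme and is a long-standing selection marker. Large deletions have been engineered by joining a pair of loxP sites, brought in on vectors that can hold parts of an Hprt minigene and a Tyr or agouti coat colour transgene. Which vectors were used for the 16p11.2 line is not given in the sources used here. A count for a gene does not say from which copy of its sequence the reads came, and this was not tested.

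The promoters of Tyr and a are shown because both genes were high in the same libraries, beside that of Tyrp1, a pigment gene that was not. Each window runs from 250 bases before to 50 bases after the gene's start in RefSeq on GRCm38.p6, is written 5′ to 3′ on the strand of the gene, and has CATGTG or its reverse complement CACATG in capitals. For a and Tyrp1 the start used lies inside the span annotated for the gene and is not its outer end. CATGTG and CACATG can overlap in a longer run, which no window here holds. These letters are the core of the element bound by MITF, the transcription factor of the melanocyte lineage.
Tyr (chr7:87493463-87493762, minus strand): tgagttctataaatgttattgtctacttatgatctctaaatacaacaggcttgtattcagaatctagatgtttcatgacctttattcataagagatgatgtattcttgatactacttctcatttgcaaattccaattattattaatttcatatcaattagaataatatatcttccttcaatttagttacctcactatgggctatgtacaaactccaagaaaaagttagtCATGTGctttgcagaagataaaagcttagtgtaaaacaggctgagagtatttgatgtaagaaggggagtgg
a (chr2:155013320-155013619, plus strand): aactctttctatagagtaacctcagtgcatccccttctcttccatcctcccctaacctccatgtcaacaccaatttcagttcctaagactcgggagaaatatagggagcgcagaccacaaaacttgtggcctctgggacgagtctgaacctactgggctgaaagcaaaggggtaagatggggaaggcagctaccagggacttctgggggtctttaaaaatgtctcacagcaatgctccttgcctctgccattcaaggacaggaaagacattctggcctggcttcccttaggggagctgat
Tyrp1 (chr4:80833963-80834262, plus strand): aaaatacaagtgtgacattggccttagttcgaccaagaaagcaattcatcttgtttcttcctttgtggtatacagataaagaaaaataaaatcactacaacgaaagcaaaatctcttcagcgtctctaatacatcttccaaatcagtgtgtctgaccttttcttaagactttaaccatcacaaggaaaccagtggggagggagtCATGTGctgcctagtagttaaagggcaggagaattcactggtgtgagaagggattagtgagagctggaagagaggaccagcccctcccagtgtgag
The Tyr window held 1 match, at position -21 from the gene's start. The a window held none, and the Tyrp1 window held 1, at position -46. Of the 7 genes with a window in the table, 5 had a match, which were Tyr, Tyrp1, Dct, Oca2 and Mc1r, and Hprt and a had none. Among all 32851 RefSeq mouse promoters of this length, 14.2% had a match. Pmel was not in the table. The 31% GC of the Tyr window was well under the 52.7% median of all windows, and Hprt, at 61.0% with 22 CpG dinucleotides, was above it. A match is a description of the letters and not a site, and no letters here tell an endogenous gene from a transgene.

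RNA-seq libraries held 11711099 to 65529807 counted reads, lysate RNA libraries 15102576 to 19122488, and footprint libraries 342052 to 678130. Values are in CPM, the read count scaled to the library's size with edgeR's TMM factors over all libraries of an assay, or in counts where few reads were seen. Sez6l2, a targeted gene in both lines, was lower in every del/+ library than in every wt library of the same line, sex and assay, in all 8 such comparisons. Taok2 and Mvp were lower without overlap in the 16p11.2 line, except Mvp in footprints, whereas in the 3g line Taok2 overlapped in every comparison and Mvp in all but female RNA-seq. In the RNA-seq library with the label 16p11.2 del/+ female 1, Xist was at 0.463 CPM and the Y-linked Ddx3y at 38.6 CPM, unlike in the other libraries labelled female. A scale over 16083 genes was set with the mean of the 3g wt females at 0 and that of the 16p11.2 wt females at 1. On it, 3g wt male 17 was placed at 0.886 and 16p11.2 del/+ male 4 at 0.205, by their labels. The striatal projection neuron markers, 8 of 8 genes, summed to 3758 to 6869 CPM over the RNA-seq libraries.

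Tyr was near the limit of detection in every wt library and in both genotypes of the 3g line, and was counted in 55 reads or more in every 16p11.2 del/+ library. In 16p11.2 del/+ males 1 to 4 it stood at 3.51, 4.30, 4.12 and 8.54 CPM, from 96 reads in male 1 upwards, against 2, 6, 0 and 0 reads in wt males 1 to 4. In females labelled del/+ 1 to 4 the counts were 136, 78, 55 and 146, against 5, 6, 3 and 3 in wt females 1 to 4. The genotypes did not overlap in either sex. Tyr averaged 5.12 ± 2.31 CPM (SD, n = 4) in del/+ males and 0.0541 ± 0.0752 CPM (SD, n = 4) in wt males. It averaged 3.01 ± 1.04 CPM (SD, n = 4) in del/+ females and 0.138 ± 0.0748 CPM (SD, n = 4) in wt females. The log2 fold change was 6.36 ± 0.62 (SE) in males and 4.50 ± 0.39 (SE) in females. It was 5.99 in males without del/+ male 4, 7.71 without wt male 2, which held 6 of the 8 wt male reads, and 4.38 in females without the library labelled del/+ female 1. In the 3g line Tyr had 2 to 14 reads in all 16 libraries, del/+ and wt alike, and did not pass the filter on low counts.

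**Figure D1:**
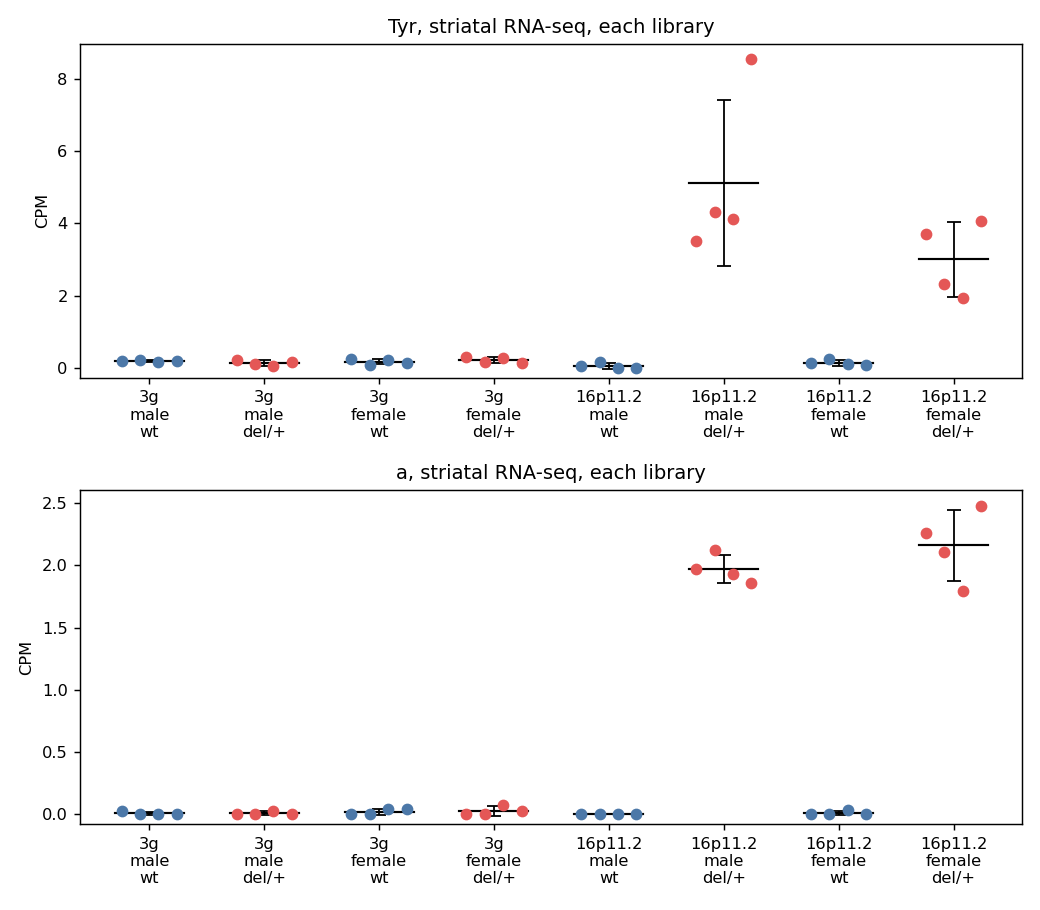
CPM of Tyr (upper) and a (lower) in each of the 32 RNA-seq libraries by line, sex and genotype. Points are libraries (blue wt, red del/+), lines are means and bars are SD (n = 4). Every 16p11.2 del/+ library lies above every other library for both genes, and del/+ male 4 has the highest Tyr value at 8.54 CPM.

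The agouti gene a showed the same groups apart, with a more even level. It was counted in 54, 86, 60 and 66 reads in 16p11.2 del/+ males 1 to 4 and in no read of the 4 wt male libraries. In females labelled del/+ 1 to 4 it had 83, 71, 51 and 89 reads, and the 4 wt female libraries had 1 read among them. The genotypes did not overlap in either sex. With 266 reads against 0, the level in males was at least 87.7-fold higher in del/+, taking 3 reads over the wt group as the limit that a count of 0 allows. In females the ratio was 289, with a 95% interval from 51.4 to 11437 that covers counting error only. The CPM of a averaged 1.97 ± 0.113 (SD, n = 4) in del/+ males and 2.16 ± 0.287 (SD, n = 4) in del/+ females. The 16 libraries of the 3g line had 0 to 3 reads each.

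In males of the 16p11.2 line 5 of the 8 genes passed the filter and 2 of them, Tyr and a, had an adjusted p under 0.05 (edgeR, quasi-likelihood, Benjamini-Hochberg over all genes tested), where 0.106% of all genes tested were. In females it was again Tyr and a among 5 that passed, with 0.144% of all genes tested. These 2 contrasts chose both genes, so these counts are no test of them and nothing is read from them. Tyr and a were the only genes called higher in del/+ males, beside 17 called lower. The 6 called higher in females were Tyr, a, Cfap54, Gm15920, Gm44677 and Gm9855, named here for that count of which Tyr and a are members.

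Tyr varied more between del/+ libraries than a did. Over the 8 libraries the coefficient of variation of CPM was 49.3% for Tyr and 10.9% for a. The ratio of Tyr to a CPM ran from 1.08 to 1.64 in the libraries labelled female, and was 1.78, 2.02, 2.13 and 4.59 in males 1 to 4. By label the values of the sexes did not overlap. The library labelled female 1, with the Y-linked reads, stood at 1.6385, just under female 4 at 1.6405. Counted with the males, it would make the ranges overlap. Across the 8 libraries Tyr and a were not seen to go together, with Pearson r = -0.14 (exact permutation p = 0.823, 2-sided, n = 8) and Spearman rho = 0.12 (exact permutation p = 0.793, n = 8). Both adjusted p-values over these 2 relations were 0.823. Without the 2 libraries farthest from the median of Tyr, r was 0.15 (exact permutation p = 0.847, n = 6). Each sex alone has too few libraries for such a value.

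Lysate RNA, a separate set of libraries, shows Tyr high again in the 16p11.2 deletion. Its counts were 38, 32 and 22 in the del/+ libraries RNA-504, RNA-506 and RNA-516, and 1, 3, 4 and 1 in the wt libraries RNA-498, RNA-499, RNA-505 and RNA-517. Every del/+ animal was above every wt animal. Tyr averaged 2.02 ± 0.536 CPM (SD, n = 3) in del/+ and 0.148 ± 0.106 CPM (SD, n = 4) in wt. The log2 fold change was 3.77 ± 0.50 (SE, adjusted p = 0.00718 in edgeR's quasi-likelihood test). It was the only member called of the 3 that passed the filter, and 0.133% of all 14330 genes tested were called. Tyr passed the filter through its del/+ libraries alone and failed it in 3g lysate RNA, so its place among the genes tested already required a difference, and what it adds is the values by animal. The count ratio was 14.4, with a 95% interval from 7.25 to 32.4 for counting error. The exact permutation test on CPM gave p = 0.0571 (2-sided), the smallest that 3 against 4 animals allow. The call depended on which del/+ animal was left out. Without RNA-504 the log2 fold change was 3.55 with an adjusted p of 0.0716 in edgeR, above the threshold. Without RNA-506 it was 3.80 with an adjusted p of 0.0516 in edgeR, also above it. Without RNA-516 the call held, at 3.92 with an adjusted p of 0.0183 in edgeR.

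In the same lysates a had 23, 18 and 21 reads in the 3 del/+ males and 3, 13, 3 and 0 in the 4 wt males. All del/+ animals were above all wt animals in CPM, with 1.37 ± 0.261 (SD, n = 3) against 0.327 ± 0.428 (SD, n = 4). RNA-499, from the wt animal nearest to the del/+ group, had 0.956 CPM. The log2 fold change was 2.14 ± 0.69 (SE), which did not pass over all genes (adjusted p = 0.990, unadjusted p = 0.00913 in edgeR). The counts of a failed the same filter in 3g lysate RNA, and it too passed here through the del/+ libraries. The count ratio was 4.59, with a 95% interval from 2.71 to 8.12, and the exact permutation p on CPM was 0.0571. Without RNA-499 the log2 fold change was 3.46 and its adjusted p 0.0936 in edgeR. Tyr, a and Mc1r were the members with every del/+ library above every wt library here. Of the 14330 genes tested, 386, or 2.69%, separated in this way, and Mc1r is outside those 14330 because it did not pass the filter. Tyr and a were chosen for being high in this genotype, so the members cannot be compared with that share. The wt background of a was not the same in the 2 assays, since lysates of both 3g genotypes had 1 to 12 reads of a in libraries about as deep as the 16p11.2 ones.

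**Figure D2:**
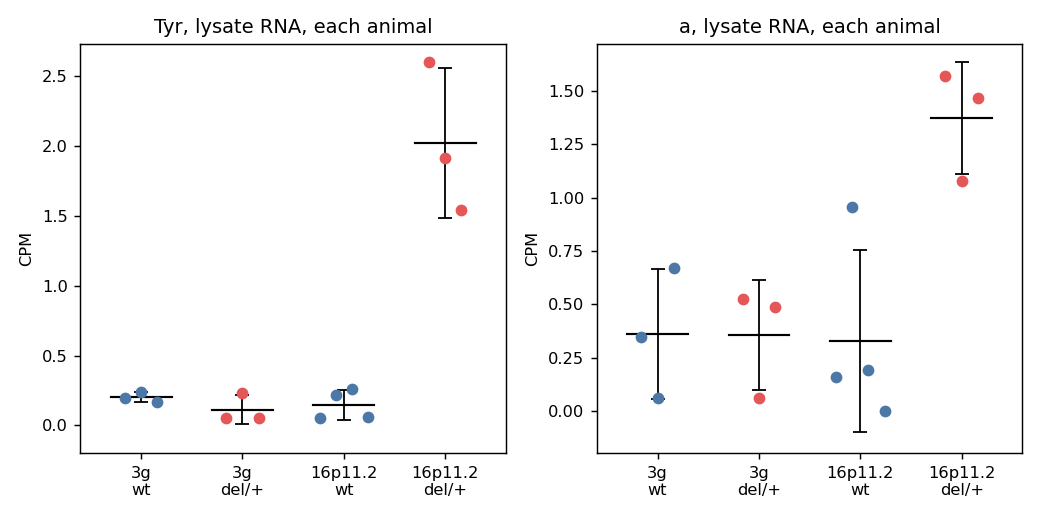
CPM of Tyr (left) and a (right) in lysate RNA of each of 13 males by line and genotype. Points are animals (blue wt, red del/+), lines are means and bars are SD (n = 3, or 4 in 16p11.2 wt). For Tyr the 16p11.2 del/+ animals lie at 1.54 to 2.60 CPM and all others under 0.26, and for a the nearest wt animal is at 0.956 against a lowest del/+ value of 1.08.

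Whether the genotype difference itself differed between the lines was tested on the 13 lysate RNA libraries. In the 3g line Tyr had 1 to 4 reads in del/+ and 3 or 4 in wt, and the genotypes overlapped. The interaction for Tyr was 4.59 ± 0.94 on the log2 scale (SE, adjusted p = 0.0791 in edgeR), larger in 16p11.2 but above the threshold of 0.05. DESeq2, run as an alternative, gave 4.68 with an adjusted p of 0.0124. Tyr was chosen, with a, for being high in 16p11.2 del/+ RNA-seq, and it passed the filter here through the 16p11.2 del/+ libraries. An interaction in this direction was favoured by that choice, so the Tyr values are a description. For a the interaction was 2.15 ± 1.15 (SE, adjusted p = 0.846 in edgeR), and for Hprt 0.21 ± 0.18 (SE, adjusted p = 0.894 in edgeR). In edgeR 0 of the 3 members that passed were called, where 0.122% of all genes were.

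Hprt, in contrast to Tyr and a, was counted in 1079 to 5640 RNA-seq reads in every library and was not called in any genotype comparison that tested it, which leaves out 16p11.2 footprints. In 16p11.2 males it stood at 134, 122, 121 and 88.3 CPM in del/+ 1 to 4 and at 113, 112, 113 and 134 CPM in wt 1 to 4. The genotypes overlapped. In the females labelled del/+ 1 to 4 the values were 120, 139, 122 and 109 CPM, and in wt females 115, 111, 121 and 115 CPM. These too overlapped, and the log2 fold changes were -0.01 ± 0.13 (SE) in males and 0.09 ± 0.07 (SE) in females, given without a test. In lysate RNA of 16p11.2 males the log2 fold change was 0.11 ± 0.13 (SE, adjusted p = 0.990 in edgeR), with 34.9, 35.8 and 26.7 CPM in del/+ and 35.6, 26.1, 30.1 and 29.7 CPM in wt. The count ratio there was 1.06 with a 95% interval from 0.993 to 1.14 for counting error.

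In the 3g line Hprt ran from 76.0 to 92.9 CPM in del/+ RNA-seq libraries and from 76.9 to 111 CPM in wt ones. The log2 fold change was -0.08 ± 0.11 (SE, adjusted p = 0.974 in edgeR) in males and 0.12 ± 0.04 (SE, adjusted p = 0.363 in edgeR) in females. Without the library labelled wt male 17, at 111 CPM, the male value changed sign to 0.03. The 3 members that passed the filter in each sex, Hprt, Dct and Pmel, gave 0 calls in males, where edgeR called 0% of all genes, 274 were under an unadjusted p of 0.05 and DESeq2 called 1. They gave 0 calls in females, where 0.00526% of all genes were called. That share is 1 gene, and edgeR called 175 genes without wt female 39, 18 without del/+ female 37 and 158 with no filter, with 0 members called in each. DESeq2, run on the genes that passed the same filter, called none of the members among them in the 3g RNA-seq, lysate RNA or footprint comparisons. Tyr and a were not among the genes it tested there, and Hprt had no adjusted p from it in footprints. In 3g lysate RNA, Hprt was the only member to pass, at -0.11 ± 0.12 (SE, adjusted p = 0.965 in edgeR), and 0.0209% of all genes were called.

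**Figure D3:**
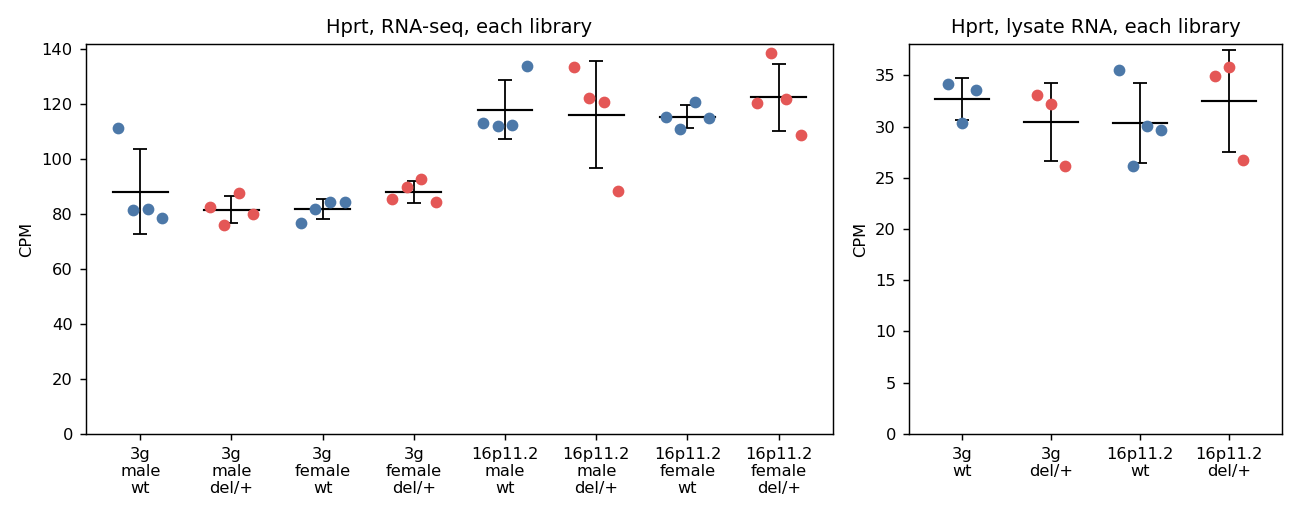
CPM of Hprt in each RNA-seq library (left) and in lysate RNA of each male (right), by line, sex and genotype, on axes from 0. Points are libraries (blue wt, red del/+), lines are means and bars are SD (n = 3 or 4). Genotypes overlap in every pair, and the single points away from their group are 3g wt male 17 at 111 CPM, 16p11.2 wt male 4 at 134 CPM and del/+ male 4 at 88.3 CPM.

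The enzymes related to tyrosinase overlapped between the genotypes of the 16p11.2 line in RNA-seq. Dct had 7 to 50 reads in 16p11.2 del/+ and 7 to 34 in wt, with 0.256 to 1.34 CPM over 8 del/+ libraries and 0.286 to 1.00 CPM over 8 wt libraries. Tyrp1 had 0 to 5 reads in each of the 32 RNA-seq libraries. Its 16p11.2 total was 19 reads in del/+ and 18 in wt. The receptor Mc1r, on which agouti protein acts, had 0 to 8 RNA-seq reads in each library, and the 16p11.2 totals were 22 in del/+ and 27 in wt. Pmel, at 0.548 to 0.892 CPM in 16p11.2 del/+ and 0.245 to 0.833 CPM in wt, overlapped between genotypes. So did Oca2, at 0.183 to 0.390 CPM in del/+ and 0 to 0.286 CPM in wt.

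In 16p11.2 lysate RNA, Mc1r was counted in 6, 13 and 11 reads in the del/+ males and in 6, 1, 4 and 2 in the wt males. The CPM of the genotypes did not overlap, at 0.653 ± 0.210 (SD, n = 3) against 0.193 ± 0.112 (SD, n = 4), with a lowest del/+ value of 0.410 and a highest wt value of 0.315. The exact permutation p was 0.0571, the smallest possible, and the counts were too low for the fit across genes. In 3g lysates Mc1r was at 0.0730 CPM on average in del/+ and 0.268 CPM in wt. The highest 3g wt value was 0.446 CPM, above the lowest 16p11.2 del/+ value. No share of all genes was computed that covers a gene outside the filter, so nothing about Mc1r is read from its separation. Tyrp1 was lower in 16p11.2 del/+, with 0 reads in the 3 del/+ males and 1 or 2 in each wt male (exact permutation p = 0.0571). The interval of its count ratio for counting error ran from 0 to 1.19 and so included 1. The share of all genes that separate downward in this way was not computed, so nothing about Tyrp1 is read from it. Pmel, Dct and Oca2 overlapped between genotypes in these lysates.

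The summed level of 10 melanocyte markers, which include 4 of the 8 genes here, was 12.5 to 17.1 CPM in 16p11.2 del/+ RNA-seq libraries and 11.9 to 15.5 CPM in wt. In lysate RNA 9 of the 10 could be summed. The sum there was 15.8 to 18.8 CPM in del/+ and 14.0 to 15.3 CPM in wt of that line, without overlap. In 3g wt lysates it was 13.74 to 17.048 CPM, which reaches into the 16p11.2 del/+ range. How often such sums separate by genotype was not computed, so nothing is read from this separation. Mitf, at 7.44 to 12.3 CPM in RNA-seq, made up most of the sum. Mlana, a defining marker, was at 0 in 22 of 32 RNA-seq libraries and reached 0.0989 CPM, Tyrp1 reached 0.176 CPM, and in the lysates of 16p11.2 del/+ males Tyrp1 and Gpr143 were at 0. Of the 5 skin markers listed, Krt5 and Krt14 were at 0 in 29 and 25 of the 32 RNA-seq libraries. Krt1, Krt10 and Trp63, also on that list, were above 0 in all 32. Krt10 was at 11.73 to 30.05 CPM, Krt1 at 0.690 to 2.06 CPM and Trp63 at 0.234 to 1.04 CPM. The part of such cells in the level of Tyr or a was not tested. In bulk tissue fewer cells of a type and less RNA per cell cannot be told apart.

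The wider pigment genes are given by their counts in 16p11.2 lysate RNA, where edgeR called 0.133% of all genes tested and 632 of 14330 were under an unadjusted p of 0.05, so that 0 calls in a list of this size is near the background. The list of 27 further melanosome and melanocyte genes had 21 tested, of which 0 were called in either direction by edgeR and 0 were under an unadjusted p of 0.05. Their median log2 fold change was 0.09, against 0.00 over all genes tested. The values were 0.24 ± 0.12 (SE) for Mitf, -0.17 ± 0.23 (SE) for Kit, a receptor kinase of melanocyte precursors, and 0.83 ± 0.40 (SE) for Rab32, a melanosome trafficking GTPase, each with an adjusted p of 0.990 in edgeR. The 13 genes of melanocortin signalling had 11 tested and 0 called, with 1 under an unadjusted p of 0.05 and a median of -0.02. Of these, Mc4r, the brain melanocortin receptor, was at 0.46 ± 0.34 (SE) and Atrn, which encodes a membrane protein that agouti protein needs, was at -0.27 ± 0.13 (SE). The purine list, of 25 symbols with 23 in the RNA-seq table, had 22 tested, 0 called and 0 under an unadjusted p of 0.05 in these lysates, with a median of 0.02. Aprt, the other salvage phosphoribosyltransferase, was at 0.03 ± 0.18 (SE). None of these lists had a gene called by edgeR in the other comparisons either.

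The genes nearest to Tyr and a on their chromosomes are given by their values, since with 0.106% to 0.144% of all genes called in the 16p11.2 contrasts a count of 0 among them is near the background. On GRCm38.p6, Tyr (ENSMUSG00000004651) lies at chr7:87424771-87493512 and a (ENSMUSG00000027596) at chr2:154950599-155051012, and Tyr shares its chromosome with the mouse segment that corresponds to 16p11.2 but lies outside it. Grm5, a glutamate receptor gene that is the next coding gene after Tyr, had a log2 fold change of 0.04 ± 0.11 (SE) in 16p11.2 males, 0.03 ± 0.10 (SE) in females and 0.01 ± 0.11 (SE) in lysate RNA. Ctsc, the next beyond it, was at 0.03, 0.05 and -0.26 in the same order. Beside a, Eif2s2 was at 0.02, -0.01 and 0.07, and Ahcy at -0.02, 0.16 and 0.04. Of the 18 neighbours of Tyr, a and Hprt, 12 were tested in each RNA-seq contrast and 13 in 16p11.2 lysate RNA, and 0 were called in either direction by edgeR in any of these, with 0 under an unadjusted p of 0.05 in the 3 contrasts of the 16p11.2 line.

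**Figure D4:**
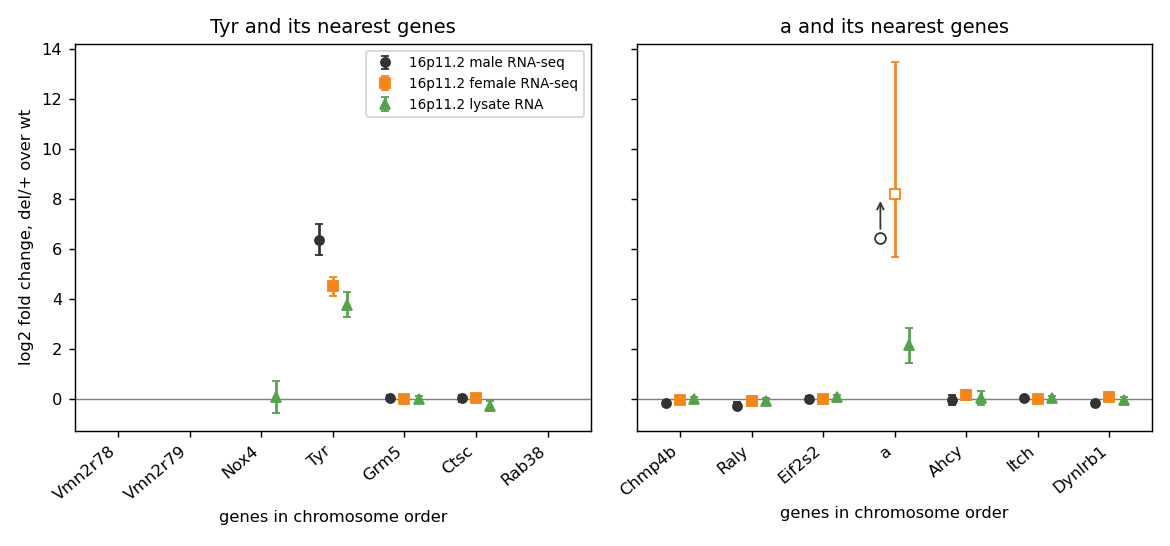
Log2 fold change (del/+ over wt) of Tyr (left), a (right) and the 3 nearest coding genes on each side, in chromosome order, in 16p11.2 male RNA-seq, female RNA-seq and lysate RNA. Filled points are fitted values with SE. For a in RNA-seq, the open circle with an arrow is a lower bound and the open square is the count ratio with its 95% counting interval. Genes with no point did not pass the filter. Tyr and a stand at 2.14 or more, and the neighbours lie between -0.26 and 0.16.

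Footprints, the RNA fragments protected by translating ribosomes, were too shallow to follow Tyr. It had 2, 0 and 1 footprints in the 16p11.2 del/+ libraries RIBO-504, RIBO-506 and RIBO-516 and 1 among the 4 wt males. For a, RIBO-506 had 9 footprints, the other 2 del/+ males 1 between them, and the 4 wt males 2 in all. The exact permutation p on CPM was 0.286 for Tyr and 0.343 for a, and a difference was not detectable at this depth. None of the 8 members passed the filter in 16p11.2 footprints, where 0.117% of all genes were called. Hprt had 6, 4 and 8 footprints in del/+ and 10, 11, 12 and 23 in wt, 17.7 ± 6.47 CPM (SD, n = 3) against 31.8 ± 8.90 CPM (SD, n = 4), with no overlap and an exact permutation p of 0.0571, the smallest possible. The share of all genes whose footprints separate in this way was not computed, so nothing about Hprt is read from it. In the 3g line Hprt was the only member to pass and was not called, at 0.23 ± 0.34 (SE, adjusted p = 0.904 in edgeR), and 0.0132% of all genes were.

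Tyrp1 had footprints in every animal with almost no RNA beside them. Lysate RNA of the 13 males held 0 to 2 reads of Tyrp1, 7 in all, while the much smaller footprint libraries held 3 to 36, 99 in all. The highest was 3g wt male 300 with 36, and the other 12 animals had 3 to 8. Tyrp1 was not alone in this. Krt5, a listed skin marker, was at 0 in 12 of 13 lysate RNA libraries but in 4 of 13 footprint libraries, where it reached 14.2 CPM. Slc24a5, a melanocyte marker, went the other way, at 0 in 11 of 13 footprint libraries and in 0 of 13 lysate RNA libraries. From which transcripts the footprint reads counted for Tyrp1 came was not tested. In the 16p11.2 line the footprint CPM was 19.5 ± 4.44 (SD, n = 3) in del/+ and 12.97 ± 2.47 (SD, n = 4) in wt, with overlap (exact permutation p = 0.171). Translational efficiency, the footprint level relative to lysate RNA of the same animal, was not called for any of the 3 members that passed in 3g, where 0.0661% of all genes were called, or of the 5 that passed in 16p11.2, where 0.0664% were. Its change was -1.03 ± 0.44 (SE, adjusted p = 0.799 in edgeR) for Hprt in 16p11.2. For Tyrp1 no size is given, since lysate RNA was at 0 in every 16p11.2 del/+ male and every 3g wt male. For Tyr it was -1.44 ± 2.20 (SE) and for a 0.42 ± 1.86 (SE).

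**Figure D5:**
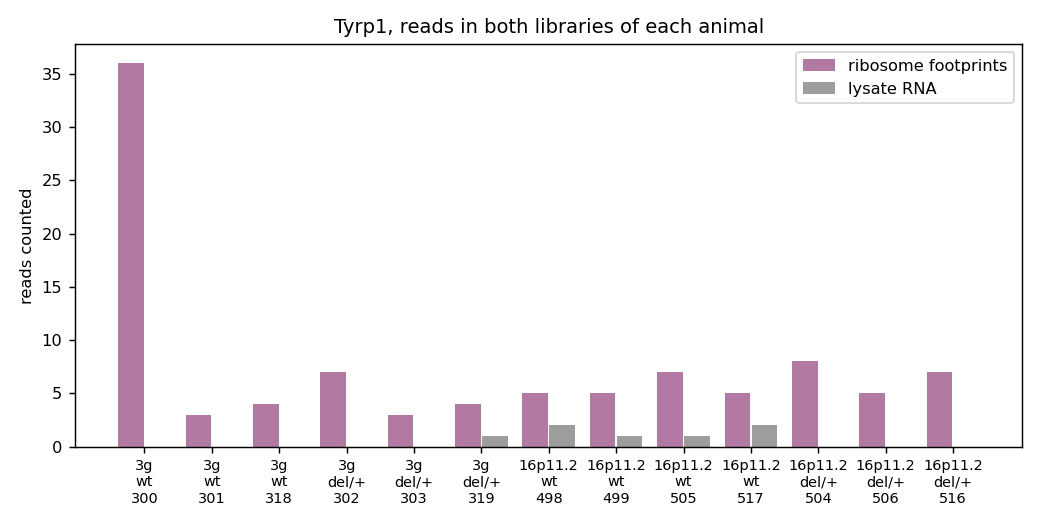
Reads of Tyrp1 counted in ribosome footprints (purple) and lysate RNA (grey) of each of 13 males, by line, genotype and animal number, on an axis from 0. Footprints outnumber lysate RNA reads in every animal, with 3 to 8 footprints in 12 animals and 36 in 3g wt male 300, against 0 to 2 lysate RNA reads.

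The genotype difference was not called as different between the sexes for any member. In the 16p11.2 line the same libraries chose Tyr and a. There the difference for Tyr was smaller in the libraries labelled female than in males, by 1.86 ± 0.89 (SE) on the log2 scale. Those labelled female include del/+ female 1, with its Y-linked reads, and the male value rests on 8 wt reads. For this term edgeR called 0% of all genes, with 818 under an unadjusted p of 0.05 and 3 called by DESeq2. In the 3g line the Tyr term was 0.90 ± 0.58 (SE, adjusted p = 0.901 in edgeR), and 0% of all genes were called, with 533 under an unadjusted p of 0.05 and 0 called by DESeq2. Across the 32 RNA-seq libraries, the gene most like Tyr among 16083 was a, with a Pearson r of log2(CPM + 0.5) of 0.97, and the converse held for a. The libraries of both lines share this contrast, so the value describes the gap between 16p11.2 del/+ and the rest. The next was Pgap2, with r of 0.82 for each gene, at 10.9 to 14.1 CPM in 16p11.2 del/+ and 9.20 to 10.3 CPM in wt. Clmn followed for Tyr with r of 0.80 and Llgl2 for a with r of 0.80.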

How the data were processed

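RNA-seq libraries came from a ribosomal-RNA depletion kit, and HTSeq and mm10 are named in the submitters' notes. Lysate RNA and footprint reads were aligned with Bowtie2, with mm39 in the notes. The authors deposited whole-number read counts per gene, which were used as deposited. Whether counting used strand is not given in the sources used here, so reads of overlapping or antisense genes cannot be told apart. Gene symbols were found for 54409 of 54532 RNA-seq identifiers and 18377 of 18411 others. Coordinates are from RefSeq on GRCm38.p6 and no genome sequence was used.

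Genes passing filterByExpr were fitted with edgeR 4.0.16 (quasi-likelihood test, TMM, R 4.3.3) per line, sex and assay, with Benjamini-Hochberg adjustment over all genes tested and a threshold of 0.05. SE is the fold change over the square root of its F statistic. Interactions were fitted for sex, line and assay, the last with the animal as a block, since footprint and lysate libraries share a lysate by the labels. Their deviations correlated at 0.06 to 0.41 in 3g and 0.16 to 0.38 in 16p11.2. Single genes were also tested by exact 2-sided permutation. Count ratios have exact conditional 95% intervals for counting error only, with a floor of 3 counts over a group. The scripts were tested on simulated data. Alternatives were DESeq2 1.42.0, its size factors, no filter, all libraries of a line in 1 fit, the replicate number as a block, and leaving out each library. The members, lists and tests were chosen with earlier results of these data known. Named genes were the members, the listed pathway genes, the 3 nearest coding genes on each side of Tyr, a and Hprt, and the 5 genes most like Tyr and a. The labels do not tie RNA-seq libraries to animals, so their p-values measure the spread between libraries. Expression was not compared between genes, apart from Tyr with a and the correlations given above.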

Additional observations from a re-analysis of the deposited data

Results flagged for a closer look

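Of 34 groups of 4 libraries tested for a member, 4 held a library far from the other 3 by Dixon's test, and chance gives about 1 in 20. Hprt was at 111 CPM in the library labelled 3g wt male 17, against 78.4 to 81.8 CPM in the other 3, and this library also lay near the 16p11.2 libraries over 16083 genes. Tyr was at 8.54 CPM in 16p11.2 del/+ male 4, against 3.51 to 4.30 CPM in the other 3, and that library lay near the 3g libraries. Hprt was at 134 CPM in 16p11.2 wt male 4, against 112 to 113 CPM. The gene a was at 0.0324 CPM in 16p11.2 wt female 3, which is a single read, and at 0 in the other 3. The sources of these values were not tested.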

How the results depend on the processing

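Of 296 recomputed values, 285 kept their direction and their side of the threshold. Without RNA-504 or RNA-506, edgeR called 0 members in 16p11.2 lysate RNA in place of 1, and over all animals left out in turn the count ran from 0 to 1 and the log2 fold change of Tyr from 3.45 to 4.18. The Tyr interaction between lines was called with DESeq2 (4.68), while edgeR gave values from 4.25 to 5.56 with a library left out. These are a description, since the choice of Tyr favoured this direction. With no filter on low counts, 1 member was called in 3g footprints, where 127 genes were called over all; it was Tyrp1, and animal 300 holds most of its reads. Hprt changed sign in 3g males without wt male 17 (0.033, range -0.13 to 0.033 over libraries left out) and in 16p11.2 males without del/+ male 4 (0.092) or wt male 4 (0.054, range -0.089 to 0.092), and was called in none of these. The cause was not tested.

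With the replicate number as a block, 1 member (Tyr) stayed called in 16p11.2 males in place of 2, and 14 genes were called over all. That contrast chose both genes, so this is a description, and the fitted log2 value of a, which depends on a prior count, was 9.06 with the block and 9.05 without it. In females 2 stayed called. Same-numbered libraries correlated at -0.24 to 0.11 in males and -0.05 to 0.13 in females, and 0 of 8 and 1 of 8 libraries correlated best with their own number, so the numbers were not taken as pairs. Without the animal block, translational efficiency gave 0 members called in both lines. Counts over all genes moved with the tool, with DESeq2 calling 118 against 1 in 3g females, 30 against 19 in 16p11.2 males, 49 against 26 in females, 13 against 3 and 31 against 19 in 3g and 16p11.2 lysate RNA, 9 against 1 and 14 against 7 in footprints, and 37 against 18 for the lines, and fewer for translational efficiency, 7 against 10 in 3g and 4 against 10 in 16p11.2. Footprint depth limits Tyr and a, with at most 9 reads in any animal. Tyr and a in the 3g contrasts and in footprints, and Hprt in 16p11.2 footprints, did not pass the filter, so no alternative value is given for them.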
